A study of Homo sapiens with 4 samples.

Results

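A set of 10 genes of mitophagy and autophagy was followed in the RNA-Seq table of FaDu cells, an established line from a squamous carcinoma of the hypopharynx. They were chosen by name, as the rows with the symbols BNIP3, BNIP3L, FUNDC1, SQSTM1, MAP1LC3B, GABARAPL1, ULK1, WIPI1, ATG9A and LONP1 on an assembled chromosome. The rule found 10 genes among 62077 rows, 1 row for each symbol, and 10 of 10 had a mean of at least 1 FPKM (fragments divided by exon length and library size). Knockdown of TET1 (TET1-si) was set against a scrambled control, each in normoxia and after 19 h of hypoxia (1% oxygen, 5% CO2 and 94% nitrogen). The 4 groups are named N-scr (normoxia, scrambled control), H-scr (hypoxia, scrambled control), N-si (normoxia, TET1-si) and H-si (hypoxia, TET1-si). According to the methods, the knockdown came from a lentiviral hairpin vector, pLKO.1-puro, and the scrambled control was delivered in the same way, so that all groups were infected cells. A hairpin with a single target sequence was listed for TET1. There was 1 library for each group, so the differences below have no replicates behind them and carry no p-value. The depth recovered from the values was 22660000 to 24520000 reads. The FPKM came from bulk RNA, in which fewer expressing cells and less RNA per cell cannot be told apart.

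Autophagy is the route by which a cell encloses part of its own content in a double membrane and delivers it to the lysosome. The ULK1 kinase starts the process, ATG9A vesicles and the lipid-binding WIPI proteins help the membrane to grow, and proteins of the ATG8 family, such as MAP1LC3B and GABARAPL1, are coupled to that membrane, where cargo receptors dock. SQSTM1 (p62) is a receptor for ubiquitin-tagged cargo. BNIP3, BNIP3L (NIX) and FUNDC1 sit in the outer mitochondrial membrane and recruit ATG8 proteins to mitochondria, which is called mitophagy. LONP1 is a protease of the mitochondrial matrix that degrades damaged proteins inside the organelle. BNIP3 and BNIP3L are textbook targets of the hypoxia-inducible factors (HIFs), which bind DNA at the core letters ACGTG or GCGTG of hypoxia response elements.

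The stretch before the transcription start is shown for 5 members, because the results turn on how far each was raised in hypoxia. In scrambled cells BNIP3, GABARAPL1, ULK1 and WIPI1 were higher in hypoxia by 2-fold or more, and LONP1 was lower. The sequences are the 250 bases before the first start listed for each gene in the RefSeq promoter table (GRCh38.p14). Each matched hg19 letter for letter at 1 place, and the positions are those of hg19. They read 5′ to 3′ on the strand of the gene, and capitals mark ACGTG or GCGTG on either strand, which on the gene strand may read CACGT or CACGC.
BNIP3 (chr10:133795428-133795677, minus strand): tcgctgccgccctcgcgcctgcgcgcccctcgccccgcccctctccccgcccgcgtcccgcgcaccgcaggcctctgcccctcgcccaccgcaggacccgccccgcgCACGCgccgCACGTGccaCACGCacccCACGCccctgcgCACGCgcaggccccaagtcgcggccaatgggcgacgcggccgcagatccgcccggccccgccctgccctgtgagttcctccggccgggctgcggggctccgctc
GABARAPL1 (chr12:10365226-10365475, plus strand): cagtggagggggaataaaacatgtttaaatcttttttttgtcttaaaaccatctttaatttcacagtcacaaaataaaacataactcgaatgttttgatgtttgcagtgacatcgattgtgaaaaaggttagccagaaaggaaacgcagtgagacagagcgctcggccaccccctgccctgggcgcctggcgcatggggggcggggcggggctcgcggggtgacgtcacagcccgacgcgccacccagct
ULK1 (chr12:132378917-132379166, plus strand): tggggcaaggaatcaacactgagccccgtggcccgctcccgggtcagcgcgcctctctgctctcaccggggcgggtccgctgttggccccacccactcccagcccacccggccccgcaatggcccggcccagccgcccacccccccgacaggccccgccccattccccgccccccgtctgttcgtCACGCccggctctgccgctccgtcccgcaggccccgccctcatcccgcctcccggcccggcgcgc
WIPI1 (chr17:66453638-66453887, minus strand): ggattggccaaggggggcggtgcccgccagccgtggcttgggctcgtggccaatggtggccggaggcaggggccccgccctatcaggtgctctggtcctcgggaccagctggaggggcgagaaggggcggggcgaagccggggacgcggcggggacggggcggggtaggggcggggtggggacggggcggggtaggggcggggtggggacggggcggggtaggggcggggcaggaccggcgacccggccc
LONP1 (chr19:5720158-5720407, minus strand): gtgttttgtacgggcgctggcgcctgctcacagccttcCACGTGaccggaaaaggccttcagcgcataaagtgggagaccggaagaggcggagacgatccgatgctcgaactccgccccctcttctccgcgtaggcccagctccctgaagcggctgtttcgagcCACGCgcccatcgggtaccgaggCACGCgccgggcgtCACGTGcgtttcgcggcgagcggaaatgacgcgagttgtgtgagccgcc

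In the BNIP3 stretch the core letters began at 6 positions from -143 to -104 relative to the start. The letters CACGTG, an E-box at -134, hold the core once on each strand and gave a pair of those positions that overlap. LONP1 also had 6 positions, from -212 to -48, with CACGTG present at -212 and at -49. ULK1 had 1 position, at -65, and GABARAPL1 and WIPI1 had 0. Of the other members in the table, MAP1LC3B had 4 positions, ATG9A had 1, at -135, and FUNDC1 and SQSTM1 had 0. Of the 10 members 9 were matched by symbol, and BNIP3L was not. Of 27305 genes with such a promoter 43.1% held at least 1 core, as did 5 of the 9 members, and 0.656% held 6 or more positions, as did BNIP3 and LONP1. CACGTG was present in 6.49% of all promoters. The stretch of BNIP3 had 81.6% G and C and that of GABARAPL1 51.6%. In the stretches read, the letters did not sort the members by response. GABARAPL1 and WIPI1, without them, were among the 4 members raised most in hypoxia in scrambled cells. LONP1, with 6 positions, was lower in hypoxia in both knockdown states. The stretches of GABARAPL1 and LONP1 lie inside the loci listed for these genes with the FPKM, so the bases before those loci were not read. LONP1 had 2 listed starts and SQSTM1 had 3, and only the first of each was read. These matches are a description of letters and say nothing of binding.

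The levels of the members differed widely, as shown in the plot of FPKM by library. SQSTM1 was the highest member in each library, with 235.5 FPKM in N-scr and 332.3 under hypoxia (H-scr). WIPI1 was the lowest in N-scr, with 1.81 FPKM, so that the highest and the lowest member differed by 130.0-fold there. The gap was 36.8-fold (H-scr), 35.6-fold (N-si) and 30.8-fold (H-si) in the others, and in H-si MAP1LC3B was lowest, at 10.5 FPKM. In N-scr the order from the top was SQSTM1, LONP1, BNIP3L, ATG9A, GABARAPL1, ULK1, FUNDC1, BNIP3, MAP1LC3B and WIPI1. In H-scr it was SQSTM1, BNIP3L, GABARAPL1, BNIP3, ULK1, ATG9A, LONP1, MAP1LC3B, FUNDC1 and WIPI1. BNIP3 thereby moved from rank 8 to rank 4, and LONP1 from rank 2 to rank 7. Some neighbours could not be separated by counting error. These were BNIP3L and ATG9A, GABARAPL1 and ULK1, and FUNDC1 and BNIP3 in N-scr, and ULK1 and ATG9A in H-scr. In N-si the order was SQSTM1, GABARAPL1, LONP1, ATG9A, ULK1, BNIP3L, BNIP3, FUNDC1, MAP1LC3B and WIPI1, and the pairs not separated were ATG9A and ULK1, BNIP3L and BNIP3, and FUNDC1 and MAP1LC3B. In H-si the order was SQSTM1, GABARAPL1, BNIP3L, BNIP3, ULK1, ATG9A, LONP1, WIPI1, FUNDC1 and MAP1LC3B. BNIP3L and BNIP3, WIPI1 and FUNDC1, and FUNDC1 and MAP1LC3B were not separated there.

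**Figure D1:**
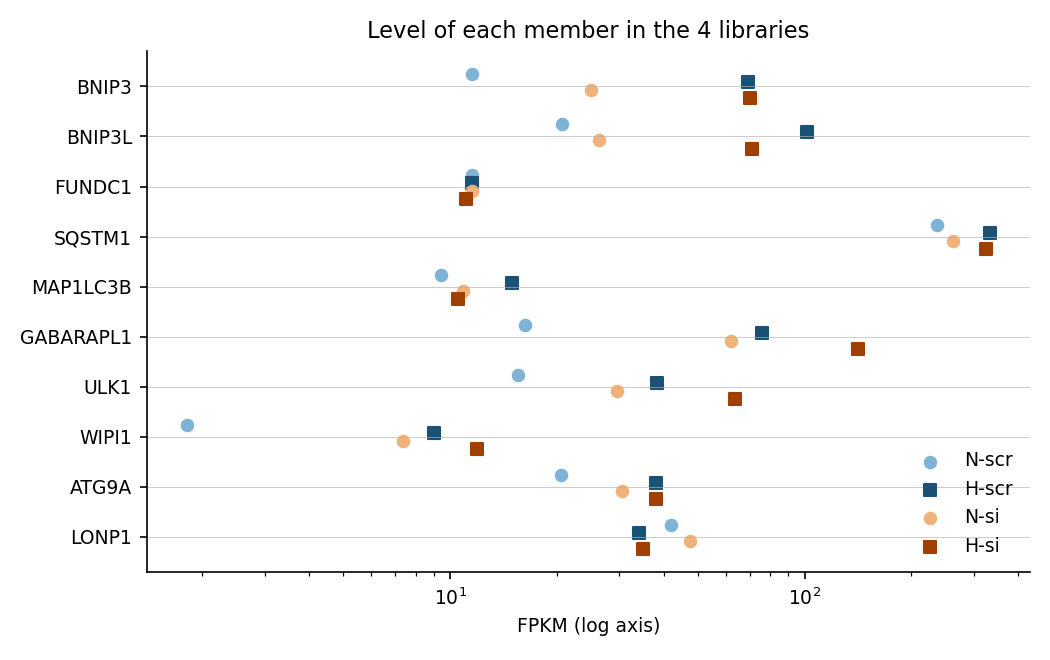
FPKM of the 10 members (log axis) in N-scr, H-scr, N-si and H-si, with circles for normoxia and squares for hypoxia and 1 point per library. SQSTM1 lies apart from the others, at 235.5 FPKM or more in each library, and WIPI1 in N-scr is the lowest point at 1.81.

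The first comparison asked how far each member differed between hypoxia and normoxia within a knockdown state. Changes were taken as differences of log2(FPKM + 0.1), and a gene counted as higher or lower at 1 or more on this scale, which is 2-fold. In scrambled cells 5 of 10 members were higher in hypoxia by 2-fold or more, BNIP3, BNIP3L, GABARAPL1, ULK1 and WIPI1, against 12.9% of the 15057 genes tested (mean of at least 1 FPKM). In TET1-si cells 4 were, the same genes without WIPI1, against 12.5%. No member was at least 2-fold lower in either state, against 4.53% of genes in scrambled and 8.66% in TET1-si cells. BNIP3, BNIP3L, GABARAPL1 and ULK1 reached 2-fold in both states, as did 6.73% of genes. The median change of the members was 1.09 with the scrambled control and 0.50 with TET1-si, and the medians of all genes were 0.05 and 0.03. Some members are well-known hypoxia targets, and the list was chosen with earlier results of these data known. It is thus not a neutral sample of genes, and the shares of all genes are given as description.

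Of the mitophagy receptors, BNIP3 (ENSG00000176171, chromosome 10, 133781578 to 133795435, minus strand, 6 exons) had the largest hypoxia response of the 10. Its level was 11.5 (N-scr), 69.2 (H-scr), 25.0 (N-si) and 70.1 FPKM (H-si). Both hypoxia libraries lay at nearly the same level and above both normoxia libraries, and the N-scr level was the lowest. In scrambled cells hypoxia went with a log2 difference of 2.57, or 5.99-fold, with a 95% counting interval from 2.42 to 2.75. In TET1-si cells it was 1.48, or 2.81-fold, with an interval from 1.37 to 1.61. Counting error does not settle the first rank of BNIP3. Its intervals overlap those of WIPI1 in scrambled cells (1.94 to 2.70) and of BNIP3L in TET1-si cells (1.36 to 1.51). Among all genes tested the responses of BNIP3 stood at the 98.0 and 94.2 percentiles. The processed pseudogene BNIP3P1 was listed at 1.13 (N-scr), 5.05 (H-scr), 1.25 (N-si) and 5.03 FPKM (H-si), and reads of such a near copy can be assigned to either locus.

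BNIP3L, the closest relative of BNIP3 and a receptor known for clearing mitochondria from maturing red cells, was 20.7 (N-scr), 101.4 (H-scr), 26.3 (N-si) and 71.2 FPKM (H-si) (ENSG00000104765, chromosome 8, 26240414 to 26363152, plus strand, 6 exons). It was higher in both hypoxia libraries, and H-scr exceeded H-si. The response was 2.29 in scrambled cells (4.91-fold, interval 2.22 to 2.37) and 1.43 in TET1-si cells (2.71-fold, interval 1.36 to 1.51). FUNDC1, a receptor whose binding to ATG8 proteins is known to be switched by phosphorylation, showed no such difference. Its level was 11.5 FPKM in N-scr, H-scr and N-si and 11.1 in H-si (ENSG00000069509, chromosome X, 44382885 to 44402247, minus strand, 5 exons). These values rested on approximately 212 to 236 reads, and the intervals of the response, -0.28 to 0.26 in scrambled and -0.32 to 0.23 in TET1-si cells, include 0. A difference of the size seen for BNIP3 or BNIP3L lay outside both intervals.

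**Figure D2:**
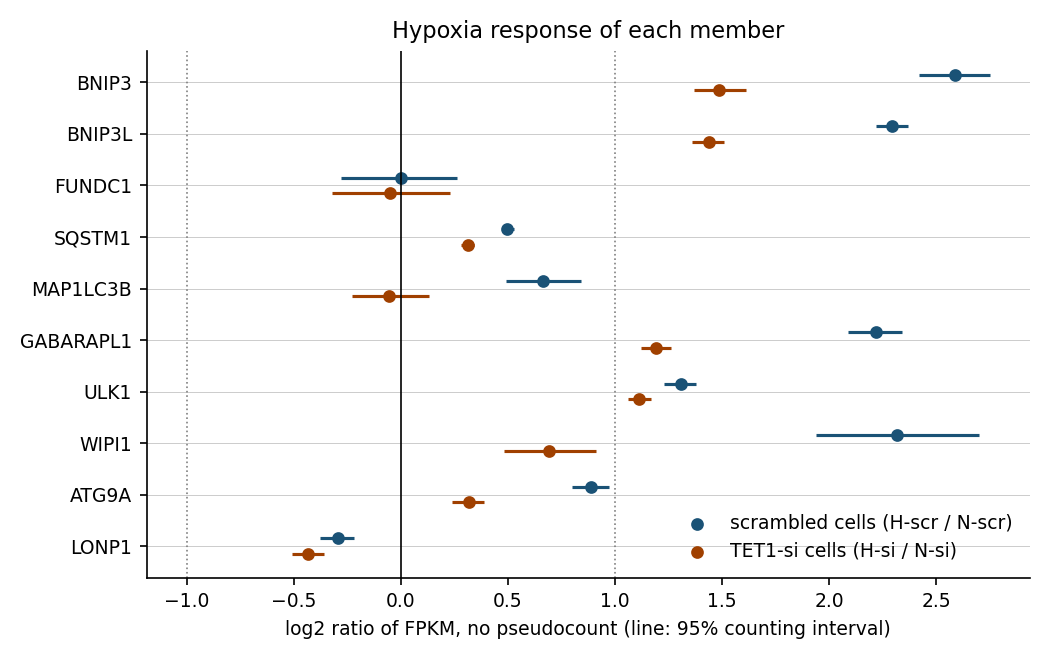
Hypoxia response of each member as the log2 ratio of FPKM in scrambled cells (H-scr to N-scr) and in TET1-si cells (H-si to N-si), with 95% counting intervals as lines and 2-fold marked by dotted lines. BNIP3, BNIP3L, GABARAPL1 and ULK1 lie beyond 2-fold in both states, WIPI1 in scrambled cells alone, and LONP1 lies below 0 in both.

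The 2 ATG8 proteins of the list differed from each other. GABARAPL1 (ENSG00000139112, chromosome 12, 10365057 to 10375727, plus strand, 4 exons) was 16.3 FPKM (N-scr) and 61.9 (N-si) in normoxia and 75.9 (H-scr) and 141.4 (H-si) in hypoxia. N-scr was low and H-si high, and the remaining libraries lay between them. The hypoxia response was 2.21 in scrambled cells (4.65-fold, interval 2.09 to 2.34) and 1.19 in TET1-si cells (2.28-fold, interval 1.12 to 1.26). MAP1LC3B (LC3B), the usual marker protein of autophagosomes, was 9.42 (N-scr), 14.9 (H-scr), 10.9 (N-si) and 10.5 FPKM (H-si) (ENSG00000140941, chromosome 16, 87417601 to 87438385, plus strand, 4 exons). Only the H-scr library stood out. Its response was 0.66 in scrambled cells (interval 0.49 to 0.84), and in TET1-si cells it was -0.05 (interval -0.23 to 0.13), a value that turned to 0.09 after rescaling each library to one common sum (TPM). The near copies MAP1LC3B2 and GABARAPL3 did not exceed 0.0751 and 0.0271 FPKM in any library. A gene on the other strand, listed under a clone name, shares 329 bp of annotated exon with GABARAPL1, and its level was 0.747 (N-scr), 1.39 (H-scr), 2.09 (N-si) and 11.4 FPKM (H-si). FBXO31 shares 60 bp with MAP1LC3B, at 7.71 to 15.5 FPKM.

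SQSTM1 (ENSG00000161011, chromosome 5, 179233388 to 179265078, plus strand, 8 exons) was 235.5 (N-scr), 332.3 (H-scr), 261.8 (N-si) and 325.3 FPKM (H-si). Both hypoxia libraries were above both normoxia libraries, by less than 2-fold. The response was 0.50 in scrambled cells (1.41-fold, interval 0.47 to 0.53) and 0.31 in TET1-si cells (1.24-fold, interval 0.28 to 0.34). The intervals are narrow because the gene held approximately 14233 to 21393 reads. C5orf45, on the other strand, shares 1582 bp of annotated exon with SQSTM1 and was itself at 153.0 FPKM (N-scr) and 205.9 (H-scr). The reads are not stated to keep strand, and the part of such reads in the SQSTM1 values was not tested.

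Among the genes that start and extend the autophagosome, ULK1 (ENSG00000177169, chromosome 12, 132379196 to 132407695, plus strand, 28 exons) was 15.5 FPKM (N-scr) and 29.5 (N-si) in normoxia and 38.4 (H-scr) and 63.8 (H-si) in hypoxia. Hypoxia and TET1-si each went with a higher level. The hypoxia response exceeded 2-fold in both states, at 1.30 (2.47-fold, interval 1.23 to 1.38) in scrambled and 1.11 (2.16-fold, interval 1.06 to 1.17) in TET1-si cells. WIPI1, which binds phosphatidylinositol 3-phosphate on the growing membrane, was 1.81 (N-scr), 9.03 (H-scr), 7.36 (N-si) and 11.9 FPKM (H-si) (ENSG00000070540, chromosome 17, 66417089 to 66453654, minus strand, 13 exons). The N-scr library was low, on approximately 71 reads, and the other 3 libraries lay within 7.36 to 11.9 FPKM. Its response was 2.26 in scrambled cells (4.98-fold, interval 1.94 to 2.70) and 0.68 in TET1-si cells (1.61-fold, interval 0.48 to 0.91). PRKAR1A overlaps the WIPI1 locus on the other strand without sharing annotated exon bases, and it lay between 137.3 and 168.3 FPKM.

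ATG9A, a membrane protein that scrambles lipids in vesicles feeding the autophagosome, was 20.6 (N-scr), 38.1 (H-scr), 30.5 (N-si) and 38.0 FPKM (H-si) (ENSG00000198925, chromosome 2, 220074494 to 220094439, minus strand, 16 exons). The hypoxia libraries were level with each other and above both normoxia libraries. The response was 0.88 in scrambled cells (1.85-fold, interval 0.80 to 0.97) and 0.32 in TET1-si cells (1.25-fold, interval 0.24 to 0.39). After rescaling to TPM the first value was 1.00, at the 2-fold threshold. ABCB6 overlaps the ATG9A locus on the same strand without sharing annotated exon bases. Its level was 23.3 (N-scr), 29.8 (H-scr), 19.8 (N-si) and 28.8 FPKM (H-si), and its part in the ATG9A values was not tested. LONP1, unlike ATG9A, was lower in hypoxia. It was 42.0 FPKM (N-scr) and 47.4 (N-si) in normoxia and 34.2 (H-scr) and 35.1 (H-si) in hypoxia (ENSG00000196365, chromosome 19, 5691845 to 5720583, minus strand, 18 exons), so both hypoxia libraries lay below both normoxia libraries. The response was -0.30 in scrambled cells (interval -0.38 to -0.22) and -0.43 in TET1-si cells (interval -0.51 to -0.36), which is less than 2-fold. RPL36, at 1427.6 to 1752.2 FPKM, shares 42 bp of annotated exon with LONP1 on the other strand.

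Placed among all genes, 4 members were far to the high side in scrambled cells, BNIP3 at the 98.0 percentile, BNIP3L at 97.3, WIPI1 at 97.2 and GABARAPL1 at 97.1. ULK1 stood at 91.6 and ATG9A at 84.6. In TET1-si cells BNIP3 was at 94.2, BNIP3L at 93.6, GABARAPL1 at 90.8, ULK1 at 89.5 and WIPI1 at 79.6. FUNDC1 stood near the middle, at 45.7 and 45.2, and LONP1 at 27.4 and 25.1. The plot of both responses shows the members below the diagonal, FUNDC1 almost on it, where the diagonal marks equal response.

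**Figure D3:**
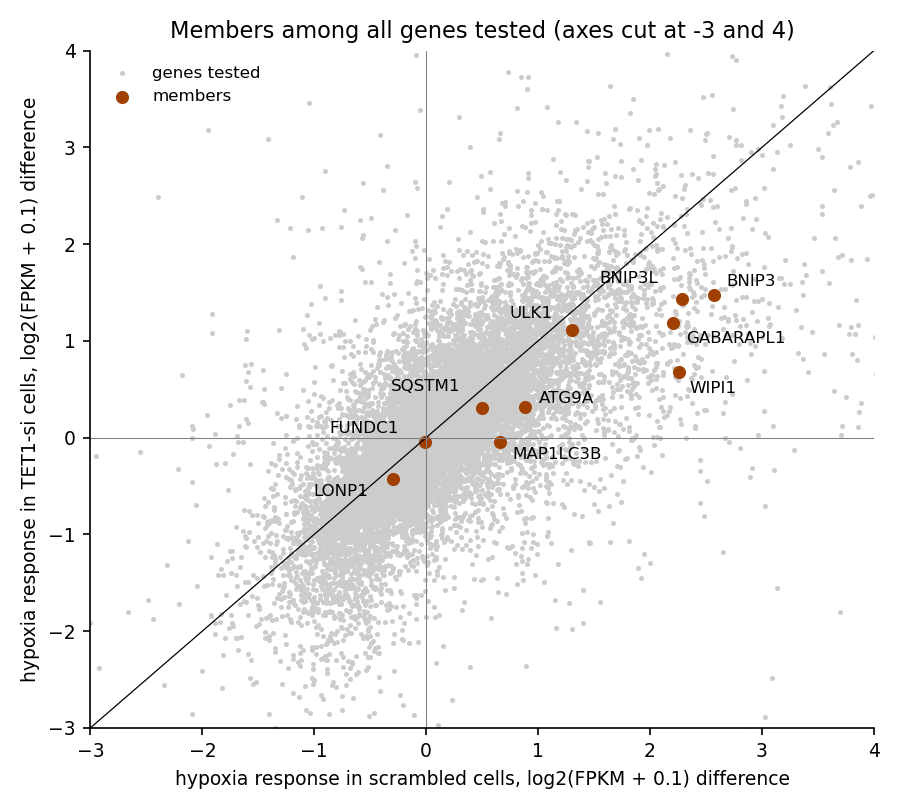
Hypoxia response in scrambled cells (horizontal) against that in TET1-si cells (vertical), both as differences of log2(FPKM + 0.1), for the genes tested (grey) and the 10 members (brown), with the line of equal response. BNIP3, BNIP3L, GABARAPL1 and WIPI1 lie to the right, below the line, and FUNDC1 lies at the origin.

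The next comparison asked how the members differed between TET1-si and scrambled cells. TET1, which encodes a dioxygenase of 5-methylcytosine, was at 0.129 (N-scr), 0.331 (H-scr), 0.0493 (N-si) and 0.122 FPKM (H-si), on approximately 11 to 76 reads. Under normoxia 3 of 10 members, BNIP3, GABARAPL1 and WIPI1, were at least 2-fold higher after TET1-si, against 12.1% of genes, and 0 were at least 2-fold lower, against 5.56%. Under hypoxia 0 members were at least 2-fold higher, against 12.0%, and 0 lower, against 8.35%. None was at least 2-fold higher in both oxygen states, a pattern that 6.51% of genes showed. The median TET1-si response of the members was 0.46 under normoxia and 0.01 under hypoxia, while the medians of all genes were 0.15 and 0.10. With median-of-ratios scaling the members' medians were 0.29 and -0.11. Of 5 epithelial markers, the keratins KRT5, KRT8 and KRT18 were lower after TET1-si in both oxygen states, KRT8 with 1739.1 (N-scr), 1903.3 (H-scr), 481.3 (N-si) and 453.2 FPKM (H-si). CDH1 and EPCAM were higher in both, CDH1 by 0.57 under normoxia and 0.45 under hypoxia and EPCAM by 0.41 and 0.68. The part of these shifts in the member values was not tested. The contrasts share libraries in pairs. A low N-scr value raises both the hypoxia response in scrambled cells and the TET1-si response under normoxia.

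WIPI1 and GABARAPL1 had the largest TET1-si responses under normoxia. For WIPI1 the response was 1.96 (4.06-fold, interval 1.64 to 2.41) under normoxia and 0.39 (1.32-fold, interval 0.20 to 0.60) under hypoxia. GABARAPL1 had 1.92 (3.79-fold, interval 1.80 to 2.05) and 0.90 (1.86-fold, interval 0.83 to 0.96), so it was higher in TET1-si cells in both oxygen states. In BNIP3 the value was 1.11 (2.16-fold, interval 0.93 to 1.30) under normoxia and 0.02 (interval -0.07 to 0.11) under hypoxia. The normoxia value of BNIP3 lay close to the threshold, at 0.94 after median-of-ratios scaling and 0.99 after upper-quartile scaling. ULK1 was also higher in both oxygen states, by 0.92 (interval 0.84 to 1.01) and 0.73 (interval 0.68 to 0.79), without reaching 2-fold.

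BNIP3L and MAP1LC3B were higher after TET1-si under normoxia and lower under hypoxia. The values were 0.35 (interval 0.25 to 0.45) and -0.51 (interval -0.56 to -0.46) for BNIP3L, and 0.21 (interval 0.02 to 0.40) and -0.50 (interval -0.67 to -0.33) for MAP1LC3B. With median-of-ratios scaling the normoxia values were 0.18 for BNIP3L and 0.04 for MAP1LC3B. ATG9A was 0.56 under normoxia (interval 0.48 to 0.66), with no difference resolved under hypoxia (interval -0.07 to 0.07). SQSTM1 and LONP1 stayed within 0.17 of 0 in both oxygen states, and FUNDC1 within 0.04. For SQSTM1 the normoxia value of 0.15 became -0.01 after median-of-ratios scaling, and for BNIP3 and LONP1 the hypoxia values of 0.02 and 0.04 became -0.10 and -0.09. That scaling lowered the median of all genes by 0.15 under normoxia and by 0.11 under hypoxia, so small TET1-si responses have no settled sign here.

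**Figure D4:**
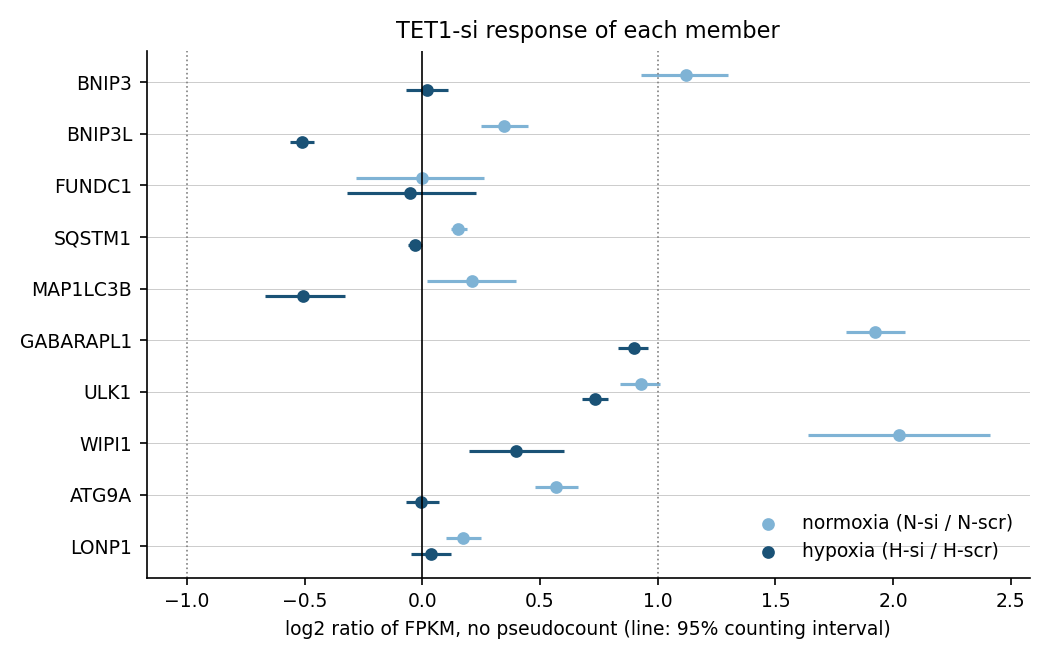
TET1-si response of each member as the log2 ratio of FPKM under normoxia (N-si to N-scr) and under hypoxia (H-si to H-scr), with 95% counting intervals as lines and 2-fold marked by dotted lines. GABARAPL1 and WIPI1 lie furthest to the right under normoxia, at 1.92 and 1.96 on the log2(FPKM + 0.1) scale, and BNIP3L and MAP1LC3B lie below 0 under hypoxia.

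The difference of hypoxia responses, taken as the TET1-si value less the scrambled value, asked how far the knockdown state went with a smaller or a larger response. It was below 0 in 10 of 10 members, from -1.57 to -0.03, although FUNDC1 turned to 0.01 after median-of-ratios and 0.03 after upper-quartile scaling. The median was -0.64, and the median of all genes was -0.06, with 44.6% of genes above 0. The hypoxia markers used to check the labels were also below 0. They had -2.22 (CA9), -1.21 (EGLN3), -0.93 (PDK1), -0.70 (ANKRD37), -0.59 (NDRG1) and -0.03 (ADM). The intervals of EGLN3, PDK1 and NDRG1 lay below 0, and those of ANKRD37 (-1.88 to 0.39) and ADM (-0.31 to 0.26) included 0. CA9 was at 0 FPKM in N-si, so its value depends on the added 0.1 and has no interval. A low N-scr value raises the scrambled response and lowers this difference. The part that choosing genes raised in hypoxia has in these values was not tested. WIPI1 had -1.57 (interval -2.05 to -1.20), BNIP3 -1.09 (interval -1.29 to -0.90) and GABARAPL1 -1.02 (interval -1.17 to -0.88). These 3 were at -1 or lower, against 7.86% of genes, and 0 members were at 1 or higher, against 4.87%. GABARAPL1 lay close to the threshold and was at -0.97 with a pseudocount of 1. Next came BNIP3L with -0.86 (interval -0.97 to -0.75), MAP1LC3B with -0.71 (interval -0.96 to -0.46) and ATG9A with -0.57 (interval -0.68 to -0.46). ULK1 had -0.19, SQSTM1 -0.18 and LONP1 -0.14, each with an interval below 0. For FUNDC1 the value was -0.03 (interval -0.41 to 0.34).

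The members reached these differences by different routes. In BNIP3 and ATG9A the H-scr and H-si levels were nearly equal, and the knockdown states differed in normoxia. In BNIP3L and MAP1LC3B the larger gap was between the hypoxia libraries, where H-si was lower. In GABARAPL1 and ULK1 the TET1-si libraries were higher in both oxygen states. WIPI1 was likewise higher after TET1-si in both. Its N-scr level was 1.81 FPKM on approximately 71 reads, and its remaining libraries lay at 7.36 to 11.9 FPKM. The study selected genes regulated by TET1 under hypoxic conditions by 3 inequalities of FPKM, with H-scr more than 2 times the H-si level and higher than N-scr, and N-si no higher than N-scr. Of the genes tested 3.84% met them, and 0 of the 10 members did. The ratio of H-si to H-scr was lowest in BNIP3L, at 0.703, and in MAP1LC3B, at 0.707, which is above the limit of the first inequality.

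The other genes of the pathway were counted in lists written for this purpose. Of 80 such genes tested, hypoxia went with a 2-fold or larger increase of 10 and decrease of 2 in scrambled cells. In TET1-si cells the counts were 5 and 1. The increases were close to the 12.9% of all genes in scrambled cells and under the 12.5% in TET1-si cells, and the decreases were under the 4.53% and 8.66% of all genes. Their median change was 0.22 in scrambled and 0.25 in TET1-si cells. After TET1-si, 4 were higher and 3 lower under normoxia, and 6 were higher and 2 lower under hypoxia. The increases lay under the 12.1% and 12.0% of all genes, and the decreases also lay under the 5.56% and 8.35%.

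ZFYVE1, PINK1 and DDIT4 were higher in hypoxia by 2-fold or more in scrambled and in TET1-si cells, and PGAM5 was lower by as much. PINK1, the kinase that marks damaged mitochondria for Parkin, was 2.79 (N-scr), 16.0 (H-scr), 3.99 (N-si) and 15.8 FPKM (H-si). Its hypoxia responses were 2.47 (interval 2.27 to 2.77) and 1.96 (interval 1.78 to 2.20), beside 2.57 and 1.48 for BNIP3. PGAM5, a mitochondrial phosphatase that is known to act on FUNDC1, was 54.0 (N-scr), 26.6 (H-scr), 45.9 (N-si) and 20.0 FPKM (H-si). Its hypoxia response was -1.02 in scrambled cells (interval -1.10 to -0.93), close to the threshold, and -1.20 in TET1-si cells (interval -1.30 to -1.10). ZFYVE1 (DFCP1), which binds the same lipid as WIPI1, was 5.58 (N-scr), 21.3 (H-scr), 12.3 (N-si) and 46.3 FPKM (H-si). It was higher after TET1-si as well, by 1.12 under both normoxia and hypoxia. DDIT4 (REDD1), an inhibitor of mTORC1 signalling, was 119.1 FPKM (N-scr) and 48.9 (N-si) in normoxia and 352.1 (H-scr) and 233.1 (H-si) in hypoxia.

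The phagophore membrane list, which holds relatives and partners of WIPI1 and ATG9A, was higher in hypoxia in 8 of 8 genes in both states, with medians of 0.89 and 0.49. Of all genes 52.9% in scrambled and 51.5% in TET1-si cells were above 0. VMP1 was its most abundant gene, at 322.2 FPKM (N-scr) and 417.2 (H-scr) in scrambled cells. In the machinery that couples ATG8 proteins to lipid, none of 10 genes reached 2-fold in any of the 4 contrasts, and the median hypoxia responses were -0.10 and -0.06. Single genes lay between -0.58 and 0.45 with the scrambled control and between -0.89 and 0.37 with TET1-si. The lowest of these values was that of ATG3, the enzyme that hands ATG8 proteins to lipid, which was named after its values were seen. ATG4B, the most abundant, was between 60.7 and 72.0 FPKM. The initiation and PI3K complex genes had medians of 0.20 and 0.16, and their most abundant gene, BECN1, was 111.5 FPKM (N-scr) and 114.2 (H-scr) in scrambled cells. ULK2, the closest relative of ULK1 and named after its values were seen, was 1.75 (N-scr), 5.20 (H-scr), 5.05 (N-si) and 5.34 FPKM (H-si).

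Of the other ATG8 proteins, GABARAP and GABARAPL2 were expressed above the minimum. GABARAP was 140.9 (N-scr), 213.1 (H-scr), 223.0 (N-si) and 317.4 FPKM (H-si), lowest in N-scr and highest in H-si, as GABARAPL1 was. The 6 other cargo receptors had median hypoxia responses of 0.51 and 0.50. CALCOCO2 (NDP52) was the most abundant of these, at 53.9 and 81.1 FPKM in scrambled cells, and OPTN (named after its values were seen) was 12.0 FPKM (N-scr) and 17.0 (N-si) in normoxia and 45.2 (H-scr) and 32.6 (H-si) in hypoxia. The 12 other genes of mitophagy receptors and the PINK1-Parkin pathway had medians of 0.14 and 0.11. PHB2, the most abundant, was 269.1 and 166.9 FPKM in scrambled cells. The list of 9 other proteases, drawn up as mitochondrial, had medians below 0, at -0.39 and -0.30. Of its genes 2 were above 0 in scrambled and 4 in TET1-si cells, and none reached 2-fold. It includes LONP2, a Lon protease of peroxisomes, at -0.63 and -0.30, and medians without LONP2 were not taken. AFG3L2 was the most abundant gene of the list, with 63.7 FPKM (N-scr) and 48.6 (H-scr) in scrambled cells.

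The 16 genes of the lysosome and of fusion with it had median hypoxia responses of 0.52 and 0.40. RAB7A was the most abundant, at 466.0 FPKM (N-scr) and 471.0 (H-scr) in scrambled cells, and lower in N-si and H-si, at 326.4 and 262.7. TFEB and MITF, related transcription factors of lysosomal and autophagy genes, were at least 2-fold higher after TET1-si in both oxygen states. TFEB was 0.369 (N-scr), 1.45 (H-scr), 4.19 (N-si) and 6.64 FPKM (H-si), on approximately 18 to 319 reads, and MITF was 0.641 (N-scr), 1.18 (H-scr), 2.36 (N-si) and 2.66 FPKM (H-si). CTSL1, which encodes the lysosomal protease cathepsin L, was at least 2-fold lower after TET1-si in both, with 88.1 (N-scr), 110.2 (H-scr), 32.1 (N-si) and 52.3 FPKM (H-si).

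**Figure D5:**
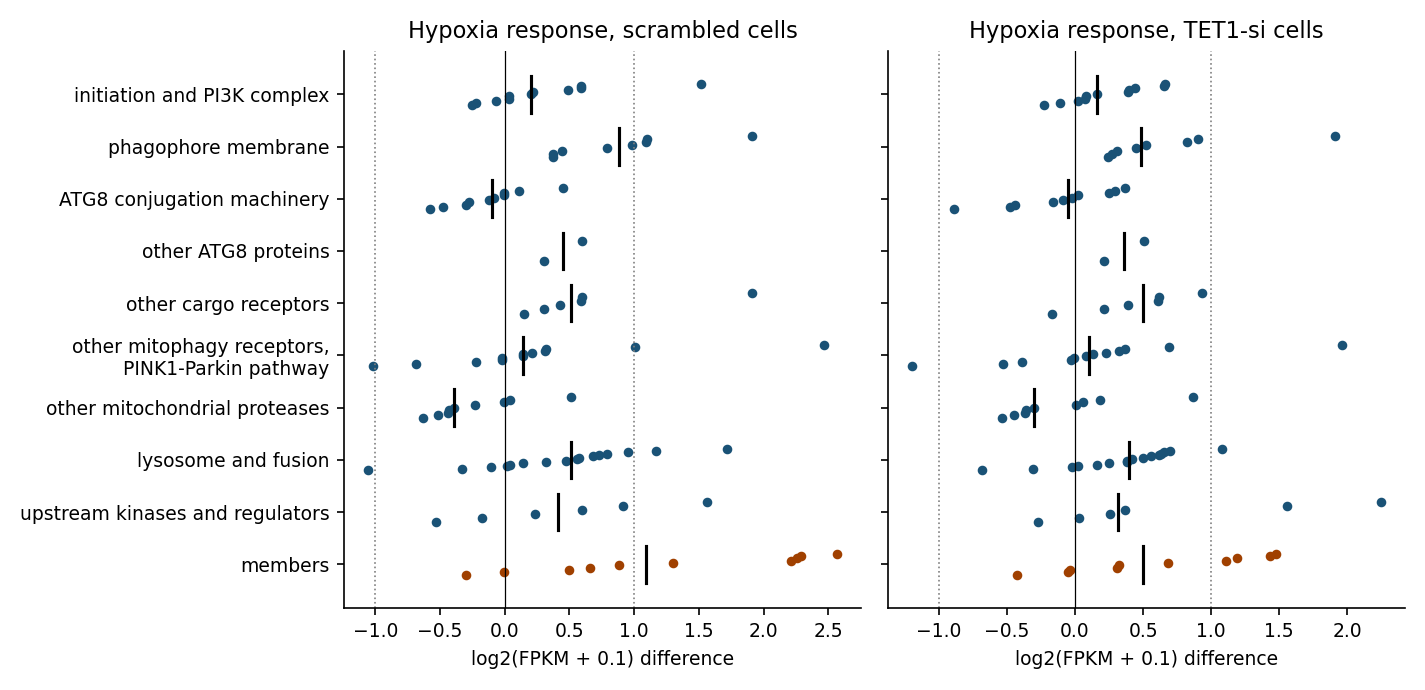
Hypoxia response, as the difference of log2(FPKM + 0.1), of the 10 members (brown) and of each pathway list (blue) in scrambled cells (left) and TET1-si cells (right); each point is a gene, black bars are medians and dotted lines mark 2-fold. The members' median is 1.09 on the left and 0.50 on the right. The medians of the lists of ATG8 conjugation and of mitochondrial proteases (which includes LONP2, of peroxisomes) lie below 0.

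The genes whose pattern over the 4 libraries was most like that of BNIP3 were RP11-7F17.1, PPP2R5B, PFKFB4, AC010761.6 and COL1A1, with distances from 0.26 to 0.34. The distance is Euclidean, over 4 values of log2(FPKM + 0.1) centred on the mean of each gene, among genes with a mean of at least 5 FPKM. PFKFB4, an enzyme that sets the level of fructose 2,6-bisphosphate, was 4.19 FPKM (N-scr) and 9.17 (N-si) in normoxia and 20.1 (H-scr) and 22.4 (H-si) in hypoxia. Among the members BNIP3L was nearest, at 0.67 and rank 42 of 10785 genes, followed by WIPI1 at 0.87, GABARAPL1 at 0.91 and ULK1 at 0.97. LONP1 was farthest, at 2.48. With 4 libraries many genes share a pattern, and the distances are a description.

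The labels were checked on a few genes. The hypoxia markers NDRG1, EGLN3, PDK1, ADM, ANKRD37 and CA9 were higher in both hypoxia libraries than in the normoxia library of the same knockdown state, 6 of 6 genes. CA9 was 0.180 (N-scr), 7.82 (H-scr), 0 (N-si) and 0.506 FPKM (H-si). Epithelial markers CDH1, EPCAM, KRT5, KRT8 and KRT18 were between 101.6 and 3992.5 FPKM in the 4 libraries. The leukocyte marker PTPRC did not exceed 0.0101 FPKM, LYZ 0.296 and CD14 3.46. COL1A1, entered as a fibroblast marker, was 5.29 (N-scr), 28.6 (H-scr), 14.0 (N-si) and 37.0 FPKM (H-si), moving with BNIP3, and its part in the member values was not tested.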

How the data were processed

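RNA-Seq of FaDu cells was available as a single table of gene-level FPKM, deposited by the authors with 1 column per library and 1 library per group. Per the labels and methods, TruSeq mRNA libraries were run on a HiSeq2000, and the authors used TopHat and Cufflinks on hg19 with genes from Ensembl. Versions and filters are not given in the sources used here. Reads are called single end in the labels and paired end in the methods, and strand is not stated.

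The 10 members and the pathway lists were chosen with earlier results of these data known. Groups were taken from the sample titles. Changes are differences of log2(FPKM + 0.1), which understates the changes of low genes, and ratios carry no pseudocount. Genes tested had a mean of at least 1 FPKM over the 4 libraries and a gene ID on 1 row only (111 IDs stood on 232 rows, none of them a member). No test across genes was run, because no group had a replicate. Named genes were the 10 members, the most abundant gene of each pathway list, its genes that moved 2-fold in one direction in both knockdown or both oxygen states, and the 5 genes most like BNIP3. ULK2, OPTN and ATG3 were added after their values were seen, and LONP2 because it is not mitochondrial.

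Depth was recovered from single-exon genes, whose FPKM are whole reads divided by depth and by length less an offset, and was 22660000 (H-si) to 24520000 reads (H-scr), with 97.2% to 97.5% of low values whole within 0.05 reads and an offset of 214 bp. The search was tested on simulated data before use. Reads per gene were approximated as FPKM times depth times the canonical transcript length in GENCODE v44lift37 less the offset. Intervals of a log2 ratio are exact 95% (Clopper-Pearson) intervals on those reads, with no pseudocount; those of the difference of hypoxia responses use the normal approximation. They cover counting error only and say nothing of variation between cultures. Strand and exon counts come from GENCODE. Computation used Python 3.11.15, pandas 2.3.3, numpy 2.4.6 and scipy 1.17.1. The alternatives were other pseudocounts, minimums and scalings.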

Additional observations from a re-analysis of the deposited data

Results flagged for a closer look

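For 4 members a contrast had opposite signs in the 2 states compared, and with 1 library per group these differences were not tested. The TET1-si response of BNIP3L was 0.35 under normoxia and -0.51 under hypoxia, a difference of -0.86. That of MAP1LC3B was 0.21 and -0.50, and the hypoxia response of this gene was 0.66 with the scrambled control and -0.05 with TET1-si; both differences are -0.71, since they are the same 4 values. The TET1-si response of SQSTM1 was 0.15 and -0.03, a difference of -0.18, and that of ATG9A 0.56 and -0.00, a difference of -0.57. For BNIP3L, and for the TET1-si response of MAP1LC3B, both counting intervals exclude 0 on opposite sides, but they do not cover the choice of scaling. The normoxia value fell to 0.18 for BNIP3L and to 0.04 for MAP1LC3B with median-of-ratios scaling, and to 0.23 and 0.09 with upper-quartile scaling. For ATG9A the second interval includes 0, and TPM turned the second value of SQSTM1 and of ATG9A to 0.04 and 0.06.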

How the results depend on the processing

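Of 350 member changes recomputed under 7 alternatives, 50 moved by more than the half-width of their counting interval. The sign changed in 17, and in 0 of the 105 that were at least 2-fold. The alternative minimums only filter genes and could not change a member's value. The scalings shift all genes of a library alike, by too little to turn the sign of a 2-fold change. Crossings of 2-fold were those of BNIP3 (0.94 and 0.99 for the TET1-si response under normoxia, by median-of-ratios and upper-quartile scaling), GABARAPL1 (difference of hypoxia responses of -0.97 with a pseudocount of 1 and with median-of-ratios, -0.96 with upper-quartile scaling) and ATG9A (1.00 in scrambled cells by TPM). TPM moved the members' median hypoxia response from 1.09 to 1.21 with the scrambled control and from 0.50 to 0.64 with TET1-si, and upper-quartile scaling moved the latter to 0.61. Median-of-ratios scaling moved the median TET1-si response from 0.46 to 0.29 under normoxia (0.34 by upper quartile) and from 0.01 to -0.11 under hypoxia. No count of members at 2-fold in the 4 contrasts moved by more than 1 gene. Of the pathway counts, the 2 genes lower in hypoxia in scrambled cells became 1 with a pseudocount of 1 and with upper-quartile scaling and 0 by TPM, and the 5 higher in TET1-si cells became 8 by TPM. The 6 higher after TET1-si under hypoxia became 3 at a minimum of 5 FPKM and with median-of-ratios scaling, the 2 lower became 5 with no minimum, and the 4 higher under normoxia became 1 at a minimum of 5 FPKM. No paired analysis was possible because each group had 1 library, and for the same reason no library could be left out. Counting intervals were narrowest for SQSTM1. They were widest for WIPI1 where N-scr enters (approximately 71 reads) and for FUNDC1 in the contrasts without N-scr.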
